A study of Mus musculus with 17 samples.

Results

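Germinal centre (GC) B cells of p52 knock-in (p52ki) mice were compared with activated B cells of the same genotype, both sorted from spleen by flow cytometry. The comparison took 5 of the 17 libraries of the series by their labelled genotype and cell population: GC replicates 2 and 5, and activated replicates 2, 3 and 5. The knock-in is carried by both groups, so it does not separate them, and the labels say no more of it than the genotype name p52Ki. The sources used here give no strain, age, immunisation or sorting gates. They also do not tie replicates to separate animals, or say that a number shared by a GC and an activated library marks the same animal, so a p-value speaks only of the spread among these libraries. The 6 wild-type (WT) libraries of the same populations, 3 GC and 3 activated, were not in the main p52ki test. They entered the test of whether the change differed between genotypes, the WT changes given beside it and the alternative fit of all 17 libraries.

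A GC forms in the follicle of a lymphoid organ after activated B cells commit to it. In its dark zone B cells divide and mutate their antibody genes, and in its light zone they are selected by antigen and T cell help. The p52 protein is an NF-kB subunit cut from the precursor that Nfkb2 encodes and acts mainly at the end of the non-canonical pathway, and the series title concerns its complex with the transcription factor ETS1.

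The activated libraries held between 8029313 and 10036347 counts and detected 19031 to 19672 genes, whereas GC replicates 2 and 5 held 4067281 and 6625399 counts and detected 11390 and 13044. Rank correlation between the GC libraries was 0.75, against 0.958 to 0.975 among activated libraries, so the GC group was the less precise. A gene is called well measured here when both GC libraries had a count and the mean over the 5 libraries was at least 20 CPM (counts per 1000000 of the library total), which held for 6530 of the 13729 genes tested. A gene low in 1 group can pass this rule through the other. Shares called and medians among well-measured genes hold only for genes chosen that way. B cell identity genes were abundant in all 5 libraries: Cd79a, a chain of the B cell receptor, ran from 4953 to 6154 CPM in activated and stood at 4170.1 and 4579 CPM in GC libraries. Ribosomal protein genes took 2.56 to 3.6% of counts in activated libraries and 6.31% and 5.07% in GC replicates 2 and 5. Mitochondrial genes took 2.6, 2.18 and 3.78% in activated replicates 2, 3 and 5 and 4.92% and 3.87% in GC replicates 2 and 5, so these shares did not overlap either.

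Among well-measured genes, 333 were higher in GC cells (5.1% of those tested) and 271 were lower (4.15%), in edgeR's quasi-likelihood test at a Benjamini-Hochberg adjusted p under 0.05 (9.25% in either direction). The smallest adjusted p was 0.0336, a value that many genes share. Over all tested genes 399 were higher (2.91%) and 1677 lower (12.2%), or 15.1% in all, but both GC libraries lacked any count for 1200 of the 1677, where a lost transcript and a silent gene look alike. The calls need all 3 activated libraries: without activated replicate 2, 3 or 5 the same test called 0 genes, with smallest adjusted p values of 0.12, 0.0886 and 0.094 and 886, 1364 and 1111 well-measured genes at an unadjusted p under 0.05. Without GC replicate 2 or 5 it called 2754 and 3200 well-measured genes, the remaining GC library then being assumed to vary like the activated ones. With the replicate number as a block, edgeR called 0 genes (smallest adjusted p 0.543, 899 well-measured genes at an unadjusted p under 0.05). DESeq2 called 1768 well-measured genes, all 604 of edgeR's among them, and limma voom with quality weights called 139. A total of 604 well-measured genes were called, and each kept its sign under every alternative that held it. In these bulk libraries, fewer cells of a type and less RNA per cell cannot be told apart.

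Genes that define GC B cells were higher in the GC libraries. Of 8 GC B cell markers, all well measured, 7 rose and none fell, with a median log2 change of 4.03 beside -0.05 over all well-measured genes. Bcl6 (ENSMUSG00000022508, chromosome 16, 23965052 to 23988852), the transcriptional repressor that establishes the GC state, stood at 17.7, 16.8 and 21.4 CPM in activated replicates 2, 3 and 5 and at 74.7 and 82.3 CPM in GC replicates 2 and 5. Its groups did not overlap, and the log2 change was 2.15 ± 0.33 (SE; adjusted p 0.0336, edgeR's quasi-likelihood test). The eighth marker, Gcsam, is named because it missed the threshold: it read 0.897, 18.1 and 0.623 CPM in activated and 131 and 146 CPM in GC libraries, a log2 change of 4.43 with an adjusted p of 0.12, and activated replicate 3 was the library apart.

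Activated replicate 3 was also the highest activated library for several other GC genes. S1pr2, a sphingosine receptor that confines B cells to the GC, read 0.996, 3.39 and 0.872 CPM in activated and 48.7 and 63.4 CPM in GC libraries. Basp1 read 2.59, 15.9 and 5.11 CPM in activated and 229 and 215 CPM in GC libraries. Mef2b, a transcription factor upstream of Bcl6, read 3.09, 18.9 and 5.48 CPM and then 94.7 and 157 CPM. In these genes the GC libraries remained above that library, and the log2 changes were 5.04 ± 0.83, 4.85 ± 0.84 and 3.84 ± 0.89, with adjusted p values of 0.0336, 0.0336 and 0.0477 in edgeR's quasi-likelihood test. The call of Mef2b was also lost without GC replicate 2 (adjusted p 0.056) or 5 (0.063).

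**Figure D1:**
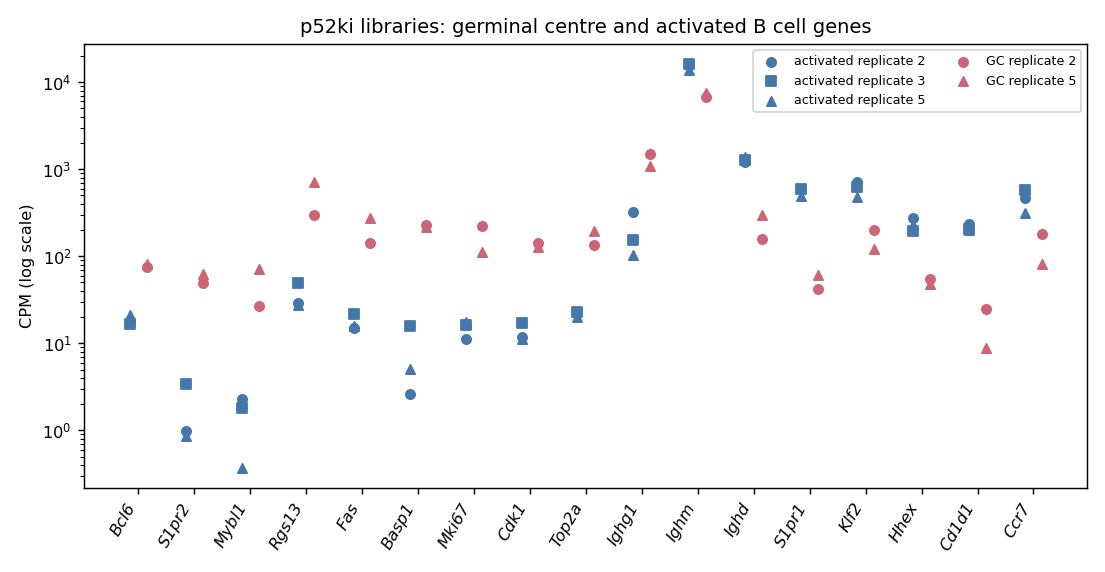
CPM on a log axis of GC and activated B cell genes in the 5 p52ki libraries, with 1 point per library and a marker shape per replicate number. From Bcl6 to Ighg1 both GC libraries lie above the 3 activated libraries, and from Ighm to Ccr7 they lie below, although Ccr7 missed the test.

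Of 18 well-measured receptors and signalling proteins of GC B cells 9 rose and none fell, with a median log2 change of 2.14. Rgs13, a damper of chemokine receptor signalling, read 29.1, 49.6 and 27.4 CPM in activated and 301 and 707 CPM in GC libraries, a log2 change of 3.92 ± 0.53. Fas, the death receptor used to gate GC B cells in the mouse, read 15.0, 21.7 and 15.9 CPM in activated and 144 and 275 CPM in GC libraries, a log2 change of 3.66 ± 0.43. Both genes were higher in GC replicate 5 than in replicate 2, and neither overlapped the activated libraries. Outside the lists, Rassf6, of a family that binds Ras, read 3.19, 8.92 and 4.36 CPM in activated and 164 and 127 CPM in GC libraries, and Ada, adenosine deaminase, 8.27, 15.4 and 5.48 CPM and then 101 and 192 CPM. Nuggc, a nuclear GTPase known from GC B cells, rose by 4.17 on the log2 scale and the histone methyltransferase gene Ezh2 by 1.85. Of 19 well-measured GC transcription factors 3 rose and none fell, and these were Mybl1, at a log2 change of 5.13, Mef2b and Bcl6.

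Of the 18 well-measured genes of hypermutation and its repair, 5 rose and none fell. Neil1, a glycosylase of base excision repair, read 38.5, 54.8 and 27.6 CPM in activated and 227 and 189 CPM in GC libraries. Rev1, a translesion polymerase, read 29.3, 24.2 and 31.4 CPM in activated and 170 and 111 CPM in GC libraries. Their log2 changes were 2.42 ± 0.36 and 2.37 ± 0.29, with no overlap between groups. Other risers of that list were Pcna, at 1.16, and Hmces, a protector of abasic sites, at 2.42. Of the 20 well-measured light zone genes 3 rose and none fell, with a median of 0.16: Slamf1, at a log2 change of 1.78, and the BCL2 relatives Bcl2a1b, at 2.27, and Bcl2a1d, at 1.86. Bcl2a1b and Bcl2a1d are near-identical genes between which reads can be split, so their separate values are uncertain.

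Cell division gave the largest number of called genes of the lists examined. Of 60 mitosis genes, all tested, 42 were well measured, and 30 of these rose and none fell, with a median log2 change of 2.39. Some, such as Cdk1 and Mki67, were under 20 CPM in each activated library and passed the rule through their GC level. That selection can raise the share of risers and the median. The risers ran from 1.28 for Bub3 to 4.0 for Ube2c. Of the 18 mitosis genes that were not well measured none passed the test, and 10 of them had no count in a GC library. Cdk1, the kinase that drives entry into mitosis, read 11.9, 16.9 and 11.2 CPM in activated and 143 and 128 CPM in GC libraries. Top2a, the topoisomerase that untangles sister chromatids, read 22.7, 22.9 and 20.1 CPM and then 136 and 194 CPM. Mki67, the proliferation marker, read 11.2, 16.3 and 17.4 CPM and then 225 and 113 CPM. These genes did not overlap between groups, and their log2 changes were 3.40 ± 0.34, 2.99 ± 0.30 and 3.54 ± 0.41, each with an adjusted p of 0.0336 in edgeR's quasi-likelihood test. Of the 15 well-measured dark zone genes, a list that shares members with the mitosis genes, 10 rose and none fell, led by Cdkn3, a phosphatase of cyclin-dependent kinases, at 4.73 ± 0.64.

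The promoters of such genes are known for a pair of short elements, the CHR (TTTGAA) and the CCAAT box, so the bases just before 4 of these genes are shown, from RefSeq on GRCm38.p6 and 5′ to 3′ on the gene's strand, with both elements in capitals in either orientation (ATTGG is CCAAT and TTCAAA is TTTGAA read on the other strand). Each window ends at the base before the gene's start in RefSeq, except that of Cdk1, which was cut to end before its start in the GENCODE annotation. Mcm3, a gene of DNA replication that rose as well, is shown beside the mitosis genes for contrast.
Cdk1, chr10:69352939-69353062, minus strand: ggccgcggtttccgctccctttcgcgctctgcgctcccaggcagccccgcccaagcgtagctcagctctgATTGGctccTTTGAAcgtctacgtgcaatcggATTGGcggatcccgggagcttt
Top2a, chr11:99024190-99024339, minus strand: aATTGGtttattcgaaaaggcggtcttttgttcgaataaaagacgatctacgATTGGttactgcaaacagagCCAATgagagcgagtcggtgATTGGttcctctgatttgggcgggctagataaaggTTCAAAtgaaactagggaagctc
Mki67, chr7:135716380-135716529, minus strand: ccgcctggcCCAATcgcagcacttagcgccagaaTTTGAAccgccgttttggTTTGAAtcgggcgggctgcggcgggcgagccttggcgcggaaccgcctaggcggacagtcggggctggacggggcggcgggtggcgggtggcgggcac
Mcm3, chr1:20820313-20820462, minus strand: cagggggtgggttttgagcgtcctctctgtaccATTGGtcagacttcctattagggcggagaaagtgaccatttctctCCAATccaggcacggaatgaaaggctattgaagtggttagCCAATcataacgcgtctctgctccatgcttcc

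These windows hold both elements in Cdk1, Top2a and Mki67, with 4 CCAAT boxes before Top2a and 2 CHR copies before Mki67, whereas the Mcm3 window holds 3 CCAAT boxes and no CHR. Over the 300 bases that RefSeq's table gives around each start, TTTGAA on either strand was in 73.7% of the 38 windows of well-measured mitosis genes (36 of 42 genes matched) and in 17.9% of the 32851 windows of all genes. For CCAAT the shares were 73.7% and 37.4%. In the 39 windows of well-measured DNA replication genes (32 of 37 matched) they were 10.3% for TTTGAA and 61.5% for CCAAT. A match describes letters in a window and is not a measured binding site.

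A smaller share of DNA replication genes passed the test. Of 46 genes 37 were well measured, and 12 of these rose and none fell, with a median log2 change of 1.28. Dut, which clears dUTP, read 44.5, 61.6 and 50.9 CPM in activated and 290 and 256 CPM in GC libraries, a log2 change of 2.44 ± 0.25. Mcm3, a subunit of the replicative helicase, read 58.4, 51.9 and 41.7 CPM and then 220 and 165 CPM, a log2 change of 1.99 ± 0.25. Its partner Mcm5 rose by 1.97 on the log2 scale. In each of these 3 genes the GC libraries lay above all activated ones. Of 24 well-measured histone and chromatin genes 5 rose and none fell. Hmgb2, an abundant DNA-bending protein of dividing cells, read 219, 330 and 204 CPM in activated and 1506 and 1645 CPM in GC libraries, and the variant histone gene H2afz 238, 363 and 267 CPM and then 1151 and 1002 CPM.

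**Figure D2:**
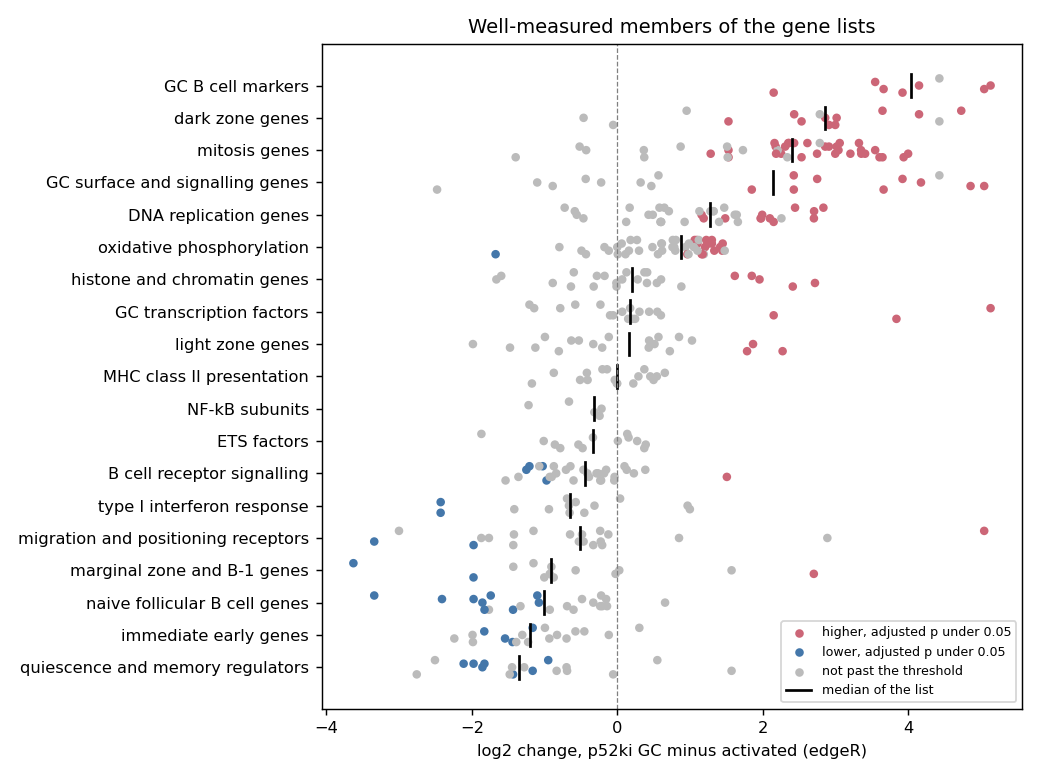
Log2 change from activated to GC in p52ki cells (edgeR) for the well-measured members of 19 gene lists, with 1 point per gene, colours for genes past the adjusted p of 0.05 and a black bar at each list's median. GC marker, dark zone and mitosis lists lie to the right with no gene called lower, and naive follicular, immediate early and quiescence lists lie to the left with no gene called higher.

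Of 48 genes of oxidative phosphorylation, all well measured, 16 rose and 1 fell, with a median log2 change of 0.87. DESeq2 called 34 of them and limma voom 0. In WT the median was 0.68 and 1 of the 48 rose, and the test of the difference between genotypes called 0 by edgeR (3 at an unadjusted p under 0.05, 1 by DESeq2 and 0 by limma voom). Cox4i1, a subunit of cytochrome c oxidase, read 236, 335 and 285 CPM in activated and 755 and 733 CPM in GC libraries, a log2 change of 1.45 ± 0.24. Atp5j, a subunit of ATP synthase, read 258, 355 and 262 CPM and then 734 and 749 CPM, a log2 change of 1.41 ± 0.24. The gene that fell, named for that reason, was Ndufs1, the largest subunit of complex I, at -1.67 ± 0.36. Transcript length moved with these calls. Genes called higher had a median summed exon length of 2190 bases, genes called lower 4869 and all well-measured genes 4295.5, and the 1633 genes with the shortest exons had a median log2 change of 0.43 against -0.27 in the 1633 with the longest. The oxidative phosphorylation genes had a median of 2036.5 bases and the mitosis genes 5055.5. The ribosomal and mitochondrial shares given above were also higher in the GC libraries. The part of length and of these shares in the results was not tested.

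Of 22 genes of resting follicular B cells, all well measured, 9 fell and none rose, with a median log2 change of -1.0. S1pr1, the receptor by which lymphocytes leave the tissue, read 586, 597 and 491 CPM in activated and 42.3 and 61.4 CPM in GC libraries. Its log2 change of -3.34 ± 0.31 was opposite to that of S1pr2. Klf2, a transcription factor that maintains quiescence and drives S1pr1, read 715, 617 and 486 CPM and then 200 and 122 CPM. The groups were apart in both genes, with a log2 change of -1.86 ± 0.29 for Klf2 and an adjusted p of 0.0336 in edgeR's quasi-likelihood test for each of them. Ighd, which encodes the constant region of IgD, fell by 2.41 on the log2 scale, and Cd55, a complement regulator, by 1.74.

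Of 18 well-measured quiescence and memory regulators 7 fell and none rose, with a median of -1.36. Hhex (ENSMUSG00000024986, chromosome 19, 37434810 to 37440731), a homeobox factor known for memory B cells, read 274, 196 and 231 CPM in activated and 55.1 and 47.5 CPM in GC libraries. It fell by 2.11 ± 0.23 on the log2 scale. Btg1 fell by 1.43 and its relative Btg2 by 1.16, both antiproliferative genes. Bcl2, the survival factor that GC B cells are known to keep low, read 93.1, 65.6 and 108 CPM in activated and 44.7 and 25.4 CPM in GC libraries. The groups were apart there too, but the log2 change of -1.28 ± 0.38 fell short of a call (adjusted p 0.084) in edgeR's quasi-likelihood test. Of 8 well-measured members of the BCL2 family, the pair Bcl2a1b and Bcl2a1d rose and Mcl1, a survival factor GC B cells require, fell by 1.07.

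Among migration receptors 1 of 20 well-measured genes rose (S1pr2) and 2 fell, S1pr1 among them. Ccr7, the receptor for the chemokines of the T cell zone, read 470, 575 and 316 CPM in activated and 178 and 80.7 CPM in GC libraries, and its log2 change of -1.77 ± 0.44 had an adjusted p of 0.058 in edgeR's quasi-likelihood test. Of 13 well-measured marginal zone and B-1 genes 2 fell and 1 rose. Cd1d1, which presents lipid antigen, read 238, 208 and 200 CPM in activated and 25.1 and 8.91 CPM in GC libraries, a fall of 3.63 ± 0.49 on the log2 scale. Dtx1, a Notch regulator, fell by 1.98 and Anxa2, a calcium-dependent membrane protein, rose by 2.70.

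Of 18 well-measured immediate early genes 4 fell and none rose, with a median of -1.20, whereas DESeq2 called 6 and limma voom 0. Jun read 166, 132 and 121 CPM in activated and 43.8 and 31.2 CPM in GC libraries, a fall of 1.83 ± 0.28. The other 3 were Ier5, which fell by 1.54, Zfp36, by 1.44, and Btg2. Of 30 B cell receptor signalling genes, all well measured, 4 fell and 1 rose. Lyn, a kinase of the receptor, fell by 1.21 and Siglecg, an inhibitory receptor, by 0.97, whereas Rasgrp3, an activator of Ras, read 141, 145 and 144 CPM and then 452 and 327 CPM and rose by 1.5 ± 0.20. Of 17 MHC class II presentation genes edgeR called 0 (2 at an unadjusted p under 0.05, 2 by DESeq2 and 0 by limma voom), with a median of -0.01. The smallest p values of that list belonged to fitted changes in opposite directions. Ctsb, a lysosomal protease, stood at 350.1 to 527 CPM in activated and 191 and 259 CPM in GC libraries, with an adjusted p of 0.12. H2-Eb1, a class II chain, stood at 2327 to 3221 CPM and then 4008 and 4105 CPM, with an adjusted p of 0.13.

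Of 30 interferon response genes, all tested, 13 were well measured, and 2 of these fell and none rose. Samd9l read 406, 238 and 330 CPM in activated and 58.0 and 55.7 CPM in GC libraries, and Ddx58, which encodes the RNA sensor RIG-I, 186, 97.0 and 133 CPM and then 28 and 20.8 CPM. Both fell by 2.43 on the log2 scale. A further 15 had no count in at least 1 GC library, and 5 had none in either, beside 4136 and 1468 of all 13729 genes tested.

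Among immunoglobulin constant regions, IgM and IgD held lower shares in GC libraries, and IgG1 and IgG3 higher ones. Of all counts in heavy chain constant genes, Ighm held 86.1, 74.7 and 85.9% in activated replicates 2, 3 and 5 and 60.7 and 73.7% in GC replicates 2 and 5. Ighg1 held 1.73, 0.714 and 0.641% in activated and 13.3 and 10.8% in GC libraries. The mean share of Ighg1 was thus 1.03 ± 0.61% (SD, n = 3) in activated and 12.1 ± 1.83% (SD, n = 2) in GC libraries, and that of Ighd 6.95 ± 1.32% and 2.15 ± 1.06%. Ighg3 held 0.907, 0.794 and 0.476% in activated and 1.57 and 2.84% in GC libraries. The groups did not overlap for these 4 genes, and each gave an exact two-sided permutation p of 0.2, the smallest that 2 libraries against 3 allow. Ighg2b held 3.33 ± 3.56% in activated and 9.73 ± 4.12% in GC libraries, with activated replicate 3, at 7.44%, above GC replicate 5, at 6.82% (exact two-sided permutation p 0.4). In the test across genes Ighg1 rose by 2.83 ± 0.48, Ighd fell by 2.41 ± 0.37 and Ighm fell by 1.02 ± 0.20 on the log2 scale. The call of Ighm was lost without GC replicate 2, at an adjusted p of 0.059 in edgeR's quasi-likelihood test. Ighg3 and Ighg2b did not pass that test. Constant regions share sequence, so reads between the IgG genes can be split. Prdm1, the driver of plasma cell fate, read 8.47, 13.1 and 7.85 CPM in activated and had no count in either GC library. Against a floor of 3 counts over both GC libraries its counts were at least 34.9-fold lower. That bound covers counting error only, not transcripts lost before counting. Prdm1 had an adjusted p of 0.0336 in edgeR's quasi-likelihood test, but was not well measured by the rule used here. It read 4.72, 17.9 and 6.84 CPM in WT GC replicates 1, 3 and 4, and edgeR's test of the difference between genotypes did not call it (adjusted p 0.14).

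**Figure D3:**
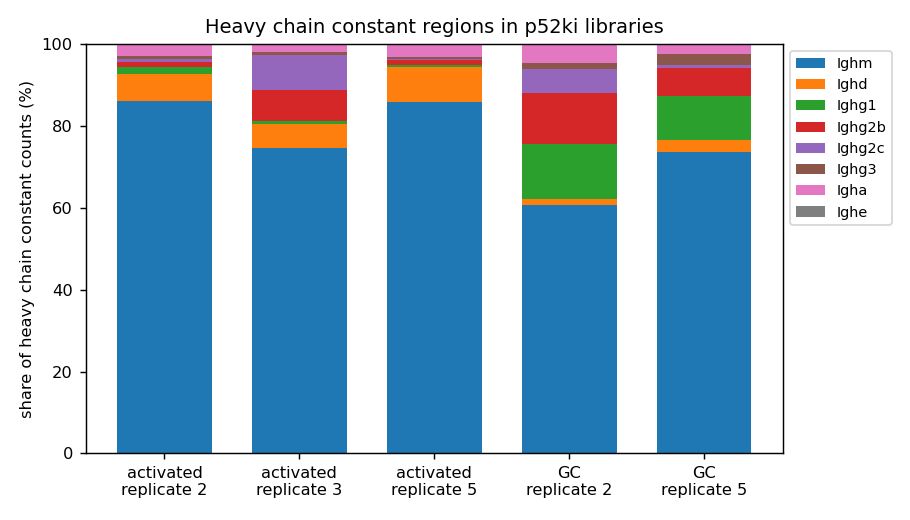
Share in percent of all counts in immunoglobulin heavy chain constant genes, stacked to 100% for each of the 5 p52ki libraries. The Ighg1 segment covers 0.641 to 1.73% in activated libraries and 10.8 and 13.3% in GC libraries.

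Of the 5 NF-kB subunit genes edgeR's quasi-likelihood test called 0 (1 at an unadjusted p under 0.05, 1 by DESeq2 and 0 by limma voom). The 5 fitted log2 changes were below 0, with a median of -0.32. Nfkb2 (ENSMUSG00000025225, chromosome 19, 46304320 to 46312385), the source of p52, read 139, 105 and 126 CPM in activated and 121 and 68.1 CPM in GC libraries. The groups overlapped, and the log2 change was -0.32 ± 0.30 with an adjusted p of 0.54. Relb, the usual partner of p52, read 59.4, 60.2 and 54.9 CPM and then 16.0 and 52.1 CPM. Rela read 134, 121 and 111 CPM and then 30.5 and 67.0 CPM, the largest fitted difference of the 5 at -1.22 ± 0.43. The GC libraries lay below the activated ones in Rela and Relb but far apart from each other, and adjusted p values were 0.13 and 0.51. Rel and Nfkb1 had fitted changes of -0.24 and -0.22. A level of Nfkb2 summed over the gene cannot check the knock-in label.

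Of 11 genes of the IkB family and NF-kB feedback, 1 fell (3 were called by DESeq2 and 0 by limma voom): Birc3, a ubiquitin ligase of the pathway, at 293, 263 and 266 CPM in activated and 140 and 85.0 CPM in GC libraries, a fall of 1.23 ± 0.25. Of 10 well-measured genes of the non-canonical pathway edgeR called 0 (2 at an unadjusted p under 0.05, 2 by DESeq2 and 0 by limma voom), and of 13 ETS factors 0 (3, 3 and 0). Ets1 read 518, 346 and 487 CPM in activated and 223 and 358 CPM in GC libraries. GC replicate 5 overlapped activated replicate 3, and the log2 change of -0.54 ± 0.32 had an adjusted p of 0.33. Irf4 and Myc, regulators of the light zone state, also missed the test: Irf4 read 99.9, 71.6 and 75.6 CPM in activated and 29.7 and 37.3 CPM in GC libraries, with an adjusted p of 0.062. Myc read 304, 282 and 153 CPM and then 262 and 48.8 CPM, so GC replicate 2 lay within the activated range and GC replicate 5 below it.

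The largest fitted falls among well-measured genes rested on very few GC reads. Uqcc1, an assembly factor of complex III, read 46.1, 34.8 and 31.0 CPM in activated and had 1 count in each GC library, a pooled ratio of activated to GC of 203 with a 95% counting interval of 55.9 to 1675. Pggt1b, a subunit of a prenyl transferase, had 1 and 2 GC counts and a ratio of 129 (44.0 to 627). Ammecr1l had 3 GC counts in each library and a ratio of 60.4 (27.7 to 165). Crybg1 and Prkaa1, a catalytic subunit of the energy sensor AMPK, had ratios of 61.2 (28 to 167) and 38.1 (21.2 to 76.5), and Skiv2l, an RNA helicase of the exosome pathway, of 31.9 (18.2 to 62.0). Such intervals cover counting error only, not transcripts lost before counting. In the remaining genes of this kind the GC libraries differed from each other, with 1 nearly empty: Pik3ip1, an inhibitor of PI3 kinase, read 4.43 and 0.604 CPM, Sbk1 12.3 and 1.06 CPM, the kinase gene Sgk1 0.492 and 3.47 CPM and Zfp422 0.492 and 3.62 CPM. These 4 genes stood between 33.0 and 213 CPM in activated libraries, so no groups overlapped, and their fitted log2 changes lay between -4.61 and -4.54. Of the 271 well-measured genes that fell, 32 had under 20 counts in a GC library, and of the 333 that rose none did. The rule for well-measured genes makes such low counts unlikely in a gene that rose, so it largely fixes that contrast.

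The change from activated to GC was then compared with that in WT cells. Over the 6530 well-measured genes the fitted changes of the genotypes had a Pearson r of 0.531 and a Spearman rho of 0.481, across genes, which are not independent replicates. Of the 604 genes called in p52ki cells 534 had the same sign in WT, where 137 of the 333 higher and 87 of the 271 lower ones also passed the test in that direction. Of all 6530 well-measured genes, 324 rose and 235 fell in WT. The WT changes and calls came from a fit over 11 libraries, and the p52ki ones from the 5 libraries alone. A printed p52ki change minus a WT change therefore need not equal the tested difference. In the 11-library fit, over all genes tested, 1248 were called in p52ki and 833 in WT. The median change of the mitosis genes was 2.39 in p52ki and 3.09 in WT, and that of DNA replication genes 1.28 and 2.19. In WT 37 of the 42 mitosis genes and 28 of the 37 replication genes rose. The test of the difference between genotypes called 1 mitosis gene and 0 replication genes by edgeR (5 and 7 at an unadjusted p under 0.05, 3 and 2 by DESeq2 and 0 and 0 by limma voom), so the list medians do not stand for a tested difference.

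By that test 26 well-measured genes (0.398% of those tested) changed differently between genotypes, 9 with a higher (0.138%) and 17 with a lower change (0.26%) in p52ki, in edgeR's quasi-likelihood test over 11 libraries. Over all 14902 genes it called 124 (0.832%), and 76 of the 113 with a lower change had no p52ki GC count. The well-measured count was 290 by DESeq2 and 0 by limma voom (883 at an unadjusted p under 0.05). It was 0 without WT activated replicate 4 (491 at an unadjusted p under 0.05), 2 to 4 without each of WT activated replicates 1 and 3, WT GC replicates 1 and 4 and the p52ki activated libraries, and 98, 310 and 600 without p52ki GC replicate 2, WT GC replicate 3 and p52ki GC replicate 5. WT GC replicate 3 detected 11232 genes, close to the p52ki GC libraries, whereas WT GC replicates 1 and 4 detected 18449 and 19135. Genotype and the order of library numbers in the titles cannot be told apart.

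**Figure D4:**
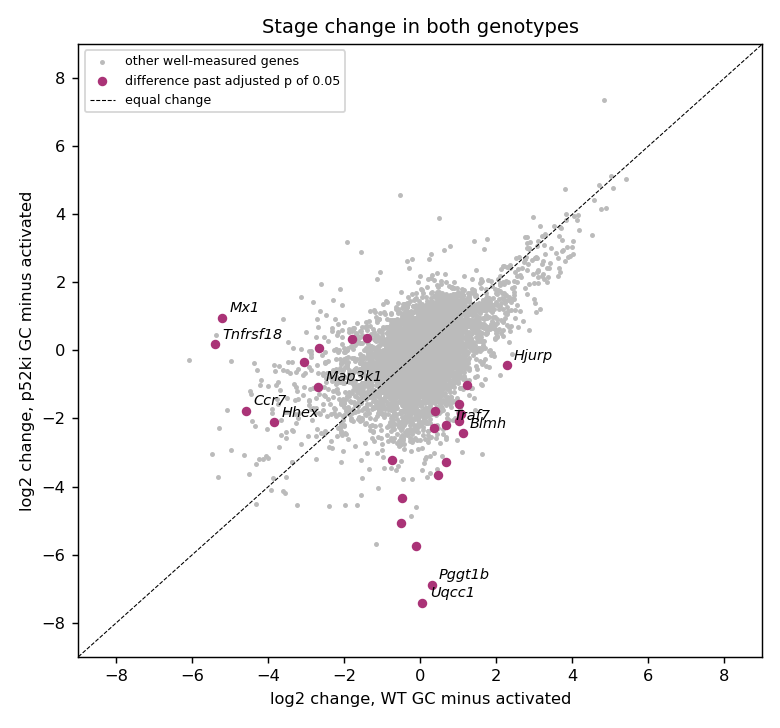
Log2 change from activated to GC in WT (horizontal axis) and p52ki cells (vertical axis), 1 point per well-measured gene, with the 26 genes whose difference passed an adjusted p of 0.05 in colour. Hhex and Ccr7 lie above the dashed line of equal change and Pggt1b and Uqcc1 lie far below it.

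Several genes that fell in WT GC cells had a smaller fitted fall, or none, in p52ki GC cells. Whole lists also stood apart between the GC libraries of the genotypes. The 22 genes of resting follicular B cells summed to 7426 and 7475 CPM in p52ki GC and to 4753 to 4895 CPM in WT GC libraries. The 8 GC B cell markers summed to 1052 and 1781 CPM and to 2048 to 2914 CPM. The part of such shifts in the differences of single genes was not tested. Hhex stood at 192, 235 and 204 CPM in WT activated and at 13.5, 11.4 and 17.7 CPM in WT GC replicates 1, 3 and 4, a log2 change of -3.85. The p52ki GC libraries, at 55.1 and 47.5 CPM, lay above all WT GC libraries, and the change was higher in p52ki by 1.86 ± 0.35 (adjusted p 0.037, edgeR's quasi-likelihood test). Ccr7 stood at 351, 268 and 358 CPM in WT activated and at 10.4, 10.4 and 19.2 CPM in WT GC libraries, against 178 and 80.7 CPM in p52ki GC libraries, a difference of 2.94 ± 0.58 (adjusted p 0.048). Map3k1, a kinase upstream of JNK, fell by 2.69 in WT and by 1.07 in p52ki, a difference of 1.74 ± 0.33, whereas Gimap4, a lymphocyte GTPase, fell by 1.79 in WT and had a positive fitted change of 0.34 in p52ki that did not pass the test. Mx1, an interferon-induced antiviral GTPase, stood at 18.5, 12.4 and 10.8 CPM in WT activated, at no more than 0.604 CPM in WT GC libraries and at 23.4 and 35.8 CPM in p52ki GC libraries. Tnfrsf18, a costimulatory receptor known as GITR, stood at no more than 1.11 CPM in WT GC and at 9.34 and 45.0 CPM in p52ki GC libraries. Tnfrsf18 is also a gene of regulatory T cells. The 17 T cell markers summed to 89.7 and 64.6 CPM in p52ki GC replicates 2 and 5 and to 68.5 to 130 CPM in p52ki activated libraries. Lck alone held 31.5 and 61.0 CPM of these GC sums and 32.1 to 59.2 CPM of the activated ones. It also read 117, 39.0 and 113 CPM in WT GC replicates 1, 3 and 4. The part of T cells in the level of Tnfrsf18 was not tested.

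In the other direction, Traf7 and Blmh did not pass the test in WT but fell in p52ki. Traf7, a ubiquitin ligase, stood at 71.2, 63.4 and 64.1 CPM in p52ki activated and at 15.0 and 12.5 CPM in GC libraries, whereas the WT GC libraries, at 80.2 to 103 CPM, lay above the WT activated ones, at 46.7 to 70.8 CPM. Its change was lower in p52ki by 2.75 ± 0.41 on the log2 scale. Blmh, a cysteine protease, stood at 34.7 to 45.4 CPM and then at 7.38 and 6.64 CPM in p52ki, and at 27.9 to 46.2 CPM and then 66.2 to 105 CPM in WT. Both had over 20 counts in each p52ki GC library. Uqcc1, Pggt1b and Ammecr1l, the genes with 1 to 3 GC counts, were also among the 17, at 15.2 to 53.4 CPM in WT GC libraries. The mitosis gene called was Hjurp, a chaperone that loads the centromeric histone, named because it was the only 1: it stood at 48.8, 38.4 and 54.6 CPM in p52ki activated and 34.7 and 32.0 CPM in GC libraries, while it rose by 2.27 on the log2 scale in WT.

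Markers of other spleen cells were detected in both groups. The summed level of 17 T cell markers ran from 68.5 to 130 CPM in activated and stood at 89.7 and 64.6 CPM in GC libraries, and that of 26 myeloid and dendritic markers from 369 to 514 CPM and at 500 and 464 CPM. Most of the T cell sum in GC replicate 5 was Lck, at 61.0 CPM. Of the markers tested, 9 of 15 T cell and 6 of 19 myeloid and dendritic ones had no count in either GC library, beside 1468 of all 13729 genes tested. Among them were Cd3g and Cd247, of the T cell receptor complex, and Lyz2 and Csf1r, of macrophages. Among other myeloid and dendritic markers, Flt3, a receptor of dendritic cell progenitors, was called higher, though it was not well measured by the rule. It read 1.62 to 6.66 CPM in activated and 33.9 and 35.3 CPM in GC libraries. Cst3 stood at 188 to 237 CPM and then higher, at 267 and 271 CPM. Ly6c2 stood at 46.9 to 67.4 CPM and then 106 and 23.4 CPM, on either side of the activated libraries. Neither Cst3 nor Ly6c2 passed the test. The 14 erythroid and platelet markers summed to 165 to 187 CPM in activated and to 356 and 361 CPM in GC libraries, carried by globin genes. Hbb-bh1, an embryonic globin gene, had the largest rise of all well-measured genes, a log2 change of 7.35 ± 0.69, from 0.598, 1.02 and 1.12 CPM in activated to 75.0 and 207 CPM in GC libraries, and in WT it rose by 4.84. Of 4 well-measured adult globin genes, whose copies share reads, Hbb-bt rose by 1.88 (a call lost by limma voom and with all 17 libraries) and the others did not pass the test, while the erythroid genes Alas2 and Klf1 had no count in either GC library. The part of such cells in the results was not tested.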

How the data were processed

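RNA from B cells sorted from mouse spleen was purified with a low-input kit, amplified by the SMART-Seq v2 protocol and sequenced as read pairs, per the labels' protocols, which name no molecular identifiers. The deposited table holds raw counts per gene; the submitters' processing notes name the tools HISAT2 2.1.0, SAMtools 1.8, Subread 1.6.2 and its featureCounts, and the build GRCm38, as used by the authors. How strand and multiply matching reads were handled is not given here, so antisense and near-identical genes are uncertain. All 55536 identifiers matched GENCODE mouse annotation on GRCm38.

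Groups came from the labels. The 13729 genes that filterByExpr kept entered glmQLFit (robust) and glmQLFTest of edgeR 4.0.16 under R 4.3.3 after TMM scaling, on the 5 libraries alone, with Benjamini-Hochberg adjustment over all genes kept. The difference between genotypes was an interaction term in 11 libraries, with 14902 genes tested. The WT changes came from the same 11-library fit. CPM are counts per 1000000 of the library total, without TMM factors. Shares of heavy chain constant counts were compared by exact permutation. Alternatives were RLE scaling, no filter, DESeq2 1.42.0, limma 3.58.1 (voom with quality weights), other sets of libraries, the replicate block and leaving out each library. The scripts were tested on simulated data.

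Named genes were a panel of 16 regulators, the 10 called genes of largest change and no overlap in each direction, up to 4 genes with the smallest p of each of 39 gene lists, and 5 genes in each direction for the difference between genotypes; others were chosen after their values were seen, and some genes these rules give are not reported here. The comparison, the lists and the panel were chosen with earlier results of these data known. Promoter bases are from RefSeq.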

Additional observations from a re-analysis of the deposited data

Results flagged for a closer look

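The genes below are those named in the report whose change from activated to GC cells differed between p52ki and WT by the test of the difference itself, at an adjusted p under 0.05 in edgeR's quasi-likelihood test. The p52ki minus WT differences in log2 change were 6.31 for Mx1, 5.70 for Tnfrsf18, 2.94 for Ccr7, 2.25 for Gimap4, 1.86 for Hhex and 1.74 for Map3k1. They were -7.36 for Uqcc1, -7.06 for Pggt1b, -5.51 for Ammecr1l, -4.45 for Prkaa1, -3.44 for Blmh, -2.75 for Traf7 and -2.57 for Hjurp. Uqcc1, Pggt1b, Ammecr1l and Prkaa1 had no more than 6 counts in any p52ki GC library, and Mx1 had none in WT GC replicate 3. Each of these differences missed the threshold when WT activated replicate 4 was left out.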

How the results depend on the processing

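Every well-measured gene called in p52ki kept its direction under the alternatives that held it, but most calls depended on the number of libraries. Besides the calls lost without any activated library, Mef2b was lost without either GC library (adjusted p 0.056 and 0.063) and Ighm without GC replicate 2 (0.059), by edgeR. The main test called 2076 genes, 604 of them well measured. The counts were 852 and 309 with no filter, 3798 and 1768 by DESeq2, 1290 and 139 by limma voom with quality weights, 3930 and 1420 with all 17 libraries, and 4092 and 1558 with the 8 p52ki libraries. Testing the well-measured genes alone gave 520, and a minimum mean of 100 CPM gave 306. Asking for 20 counts in both GC libraries, an alternative chosen after seeing the data, gave 572. Leaving out 1 library gave 0 to 8166 genes, and 0 to 3200 well-measured ones. RLE scaling, which raised the median log2 change by 0.04, and leaving out immunoglobulin genes stayed within 1.5 times of the main counts.

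With the replicate number as a block, the test called 0 genes and 0 well-measured genes (1144 and 899 at an unadjusted p under 0.05, smallest adjusted p 0.543). The labels do not say that a number marks 1 animal, so the block was kept as an alternative only. Over well-measured genes the difference between replicates 2 and 5 had a correlation of -0.0613 between GC and activated cells. That value cannot decide whether libraries were paired, because the GC libraries were imprecise. Their rank correlation over these genes was 0.678, against 0.897 to 0.952 among activated libraries.

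The difference between genotypes called 124 genes, 26 of them well measured. The counts were 1122 and 290 by DESeq2, 0 and 0 by limma voom (2002 and 883 at an unadjusted p under 0.05), 913 and 276 with all 17 libraries, and 4 to 1620 and 0 to 600 without 1 library. As shares of all counts in place of heavy chain counts, the differences were -0.819 percentage points for Ighm, -0.106 for Ighd and 0.111 for Ighg1, smaller because the total is larger. Signs changed only in genes that had not passed the test in p52ki: Tnfrsf18 was at -0.12 by limma voom, -0.29 with the replicate block and -1.49 to 0.90 without 1 library (lowest without GC replicate 5), Gimap4 ranged from -0.0084 (without GC replicate 2) to 0.58, Myc from -2.23 to 0.078 (without GC replicate 5) and Nfkb1 from -0.46 to 0.11 (without activated replicate 5); the cause was not tested. Depth limits what the GC libraries can show: 3 counts correspond to 0.738 and 0.453 CPM in GC replicates 2 and 5.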

Other observations

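The called members of several further gene groups in p52ki GC cells follow, at an adjusted p under 0.05 in edgeR's quasi-likelihood test. Over all well-measured genes 5.1% rose and 4.15% fell, so such counts in lists of this size do not set them apart. In the glycolysis, cell cycle control, plasma cell, Toll-like receptor and MYC network lists limma voom called 0 genes, and DESeq2 called 3, 5, 2, 3 and 2. Of 13 well-measured glycolysis genes 1 rose, Gapdh, from 356, 464 and 376 CPM in activated replicates 2, 3 and 5 to 931 and 970 CPM in GC replicates 2 and 5. Of 14 cell cycle control genes 1 rose, Ccne2, which encodes a cyclin of S phase entry, at a log2 change of 1.84. Of 29 genes of protein folding and secretion 1 rose, Sec61g, a subunit of the translocation channel, by 1.33 on the log2 scale, and 1 fell, the disulfide isomerase gene Pdia4, by 1.94, from 704, 632 and 595 CPM to 143 and 173 CPM. Of 10 plasma cell regulators 1 fell, Tnfrsf13b, which encodes the receptor TACI, by 1.02, and of 11 Toll-like receptor genes 1 fell, Unc93b1, the chaperone of the endosomal receptors, by 1.04.

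Of 13 well-measured cholesterol synthesis genes edgeR called 0 (3 at an unadjusted p under 0.05, 3 by DESeq2 and 0 by limma voom), with a median log2 change of 0.08 in p52ki against 1.54 in WT, where 3 of the 13 rose. The test of the difference between genotypes called 0 of them as well (2, 1 and 0). Of 12 costimulation genes 1 rose (Slamf1), and of 13 genes of the MYC network 1 rose (Mxd3, at 1.27). None of 11 NK cell markers was well measured. Their sum was 58.6, 59.9 and 24.8 CPM in activated replicates 2, 3 and 5, and 60.7 and 4.98 CPM in GC replicates 2 and 5. Of 15 stromal and endothelial markers 1 was well measured, Pecam1, at 112 to 167 CPM in activated and 104 and 51.2 CPM in GC libraries.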
